A study of Mus musculus with 24 samples.

Results

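Transcript levels of 10 heat shock and chaperone genes were followed in endothelium and stroma of the mouse marrow, in culture and in vivo. The 10 genes, chosen by symbol among 23879 gene rows per library and all found, were Hspa1a, Hspa1b, Hspb1, Hspa8, Hspd1, Hsp90aa1, Hsph1, Dnajb1, Bag3 and Hsf1. Heat shock proteins bind unfolded stretches of other proteins and help them fold, keep them from clumping or pass them on for degradation. When unfolded protein builds up, the transcription factor HSF1 is freed from chaperones, binds repeats of a short GAA element in promoters and raises the inducible chaperones within minutes to hours. Tissue dissociation, sorting and culture are known as settings in which these genes and the immediate-early genes can be switched on, and marrow cells have to be released from bone before they can be profiled.

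The study, which is about the arteriole niche in which blood stem cells live, sequenced polyA RNA of C57BL/6J mice in 24 libraries, 3 for each of 8 groups. The endothelial and stromal groups called culture here are titled BMEC-Akt1 and BMS-Akt1, and those called alone (CC-Alone) and with HSPC (CC+HSPC) belong to a co-culture series, in which hematopoietic stem and progenitor cells were left out or added. The groups called in vivo carry the titles BMEC-In vivo and BMS-In vivo. The name Akt1, a kinase of growth factor signalling, stands in all 18 titles from culture and in none of the 6 in vivo titles, and the labels do not say what was done with it. Animal age, how cells were isolated or sorted and the culture medium are not given in the labels, except that the column headers of the endothelial in vivo libraries read YoungBMEC. In every comparison of in vivo with culture, the setting, the isolation and whatever the name Akt1 stands for cannot be told apart.

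All values were FPKM, that is fragments scaled by transcript length and by library size, and the depth behind them is unknown. Totals ran from 1421447 to 1808592 FPKM per library. Whether the 3 libraries of a group stem from separate animals or cultures is not given. The spread behind every adjusted p-value may thus be partly technical or, outside culture, purely so. Across 15395 genes, libraries of the same group correlated at 0.9903 or more in the 6 groups outside culture. The range was 0.9327 to 0.9484 in cultured endothelium and 0.9141 to 0.9867 in cultured stroma, where replicate 1 stood apart. In 3 of the 6 culture libraries Xist reached 1006 to 1249.8 FPKM and 4 Y-linked genes were at 0, unlike in the other 21 libraries. These were endothelial replicates 2 and 3 and stromal replicate 3, so each culture group mixed libraries of unlike sex-linked expression. The 6 endothelial markers (Pecam1, Cdh5, Kdr, Tie1, Emcn and Cldn5) summed to 6048 to 14507 FPKM in endothelium and to at most 23.4 in stroma. The 6 stromal markers (Col1a1, Col1a2, Pdgfra, Pdgfrb, Cxcl12 and Lepr) summed to 3406 to 162558 in stroma and 260 to 3075 in endothelium, and Lepr was at 0 in endothelium alone and with HSPC and in stroma alone.

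The promoters of 7 of the 10 genes were found among RefSeq promoters on GRCm38.p6, each window running from 250 bases before to 50 bases after the start of transcription. Hspa8, Hsp90aa1 and Hsf1 were not among them. They were searched for the paired HSF1 element in its head-to-head form GAANNTTC and its tail-to-tail form TTCNNGAA. Each motif reads the same on both strands, and neighbouring matches may overlap. Either motif occurred in 15.056% of all 32851 promoters and in at least 1 window of 6 of the 7 genes. These 7 genes have 10 windows, so the count per gene and the share per promoter are unlike measures. Both motifs sharing a triplet, an array of at least 3 elements, occurred in 0.603% of all promoters and in windows of Hspd1 and Hsph1. The 4 windows below belong to the near-identical pair and to Hspb1 and Hspd1, which had the highest and the lowest log2 difference between endothelium in vivo and alone, and capitals mark the matches. They lie at chr17:34972107-34972406 (minus strand) for Hspa1a, chr17:34959189-34959488 (minus) for Hspa1b, chr5:135887669-135887968 (plus) for Hspb1 and chr1:55087883-55088182 (minus) for Hspd1.
Hspa1a: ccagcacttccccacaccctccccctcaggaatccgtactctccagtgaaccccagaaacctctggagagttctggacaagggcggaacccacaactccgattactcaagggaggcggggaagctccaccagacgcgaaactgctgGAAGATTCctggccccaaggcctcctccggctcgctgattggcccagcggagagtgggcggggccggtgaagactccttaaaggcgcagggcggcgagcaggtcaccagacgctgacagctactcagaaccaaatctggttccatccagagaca
Hspa1b: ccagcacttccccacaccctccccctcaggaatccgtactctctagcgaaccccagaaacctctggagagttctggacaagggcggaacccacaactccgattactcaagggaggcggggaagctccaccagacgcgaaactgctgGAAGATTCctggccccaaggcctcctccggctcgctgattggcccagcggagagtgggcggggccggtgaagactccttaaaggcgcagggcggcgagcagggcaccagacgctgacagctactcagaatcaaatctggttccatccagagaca
Hspb1: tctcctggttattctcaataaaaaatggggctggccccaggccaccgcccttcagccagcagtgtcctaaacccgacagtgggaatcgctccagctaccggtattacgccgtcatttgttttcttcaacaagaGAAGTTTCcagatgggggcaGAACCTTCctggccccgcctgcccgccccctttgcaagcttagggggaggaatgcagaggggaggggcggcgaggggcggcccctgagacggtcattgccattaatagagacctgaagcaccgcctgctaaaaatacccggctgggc
Hspd1: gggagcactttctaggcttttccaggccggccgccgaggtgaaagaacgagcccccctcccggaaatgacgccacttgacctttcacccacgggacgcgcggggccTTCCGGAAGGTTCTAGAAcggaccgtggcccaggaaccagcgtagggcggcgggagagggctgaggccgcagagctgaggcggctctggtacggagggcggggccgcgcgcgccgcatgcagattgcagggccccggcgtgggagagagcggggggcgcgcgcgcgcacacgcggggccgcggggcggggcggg
The Hspa1a and Hspa1b windows differed at 4 of 300 bases, C44T, T47C, T249G and C276T, counted from the 5′ end with the Hspa1a base first. Both hold 1 match, whose first base lies at -104 from the start. Matches began at -117 and -97 in Hspb1 and at -144, -139 and -134 in Hspd1, where they overlap. A further Hspd1 window had no match. Hsph1 had the same kind of overlapping array in both of its windows, which overlap each other and hold the same array. Bag3 had 1 match at 43, and neither Dnajb1 window had one. A match describes the letters and no binding was measured.

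Hspa1a, Hspa1b, Hspb1 and Dnajb1 spanned wider ranges of group means than the other 6 genes. Hspa8, the constitutive cytosolic HSP70, lay between 653 and 2343 FPKM in all 24 libraries, and its highest group mean was 2.85 times its lowest. Hsf1, the factor itself, varied least, from 54.2 to 117 FPKM, with a ratio of group means of 1.65. Hspb1, a small heat shock protein that holds unfolded clients and binds actin filaments, varied most, from 1.44 to 661 FPKM. For Hspa1a and Hspa1b, which encode nearly the same inducible HSP70, the ratios of group means were 27.7 and 23.3. They were 9.11 for Dnajb1, the J-domain protein that hands clients to HSP70, and 2.40 to 3.63 for Hspd1, Hsp90aa1, Hsph1 and Bag3.

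**Figure D1:**
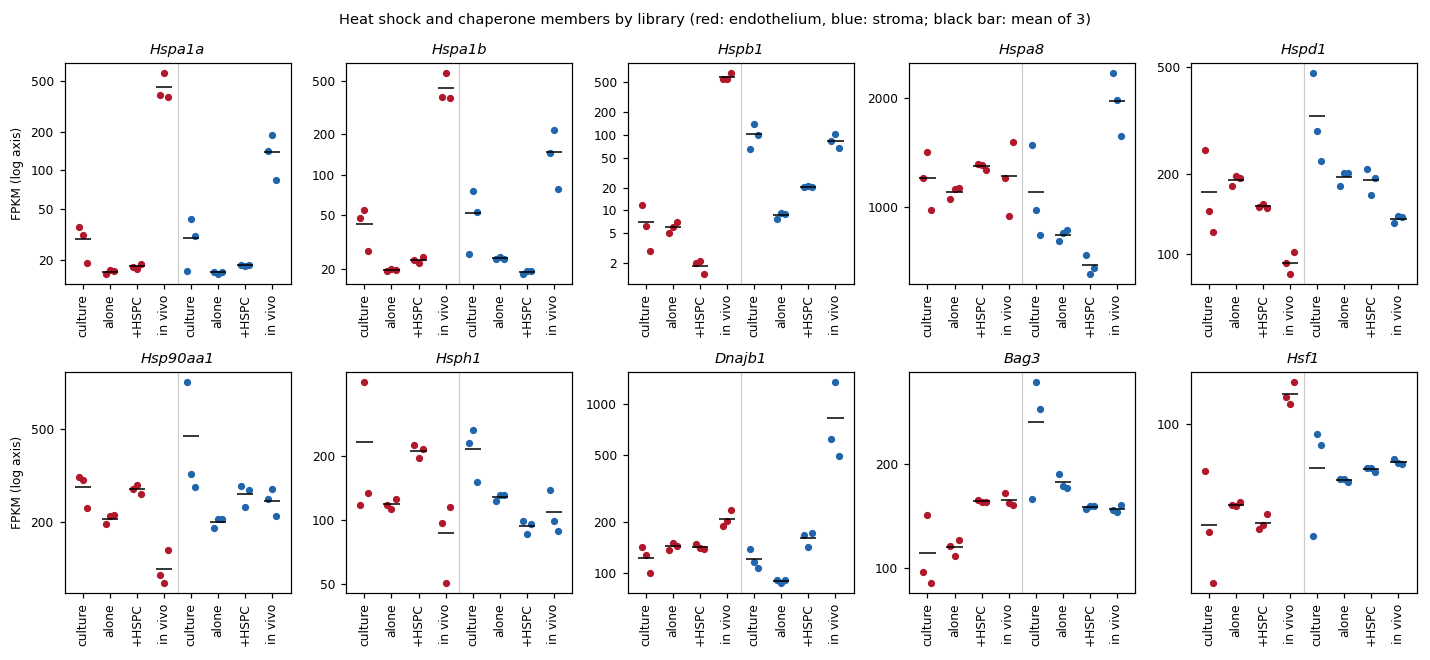
FPKM of the 10 genes on log axes, 1 point per library, in the 4 endothelial groups (red) and the 4 stromal groups (blue), with a black bar at the mean of 3 libraries. Hspa1a and Hspa1b stand highest in vivo in both cell types, Hspb1 in endothelium in vivo, at 546 to 661 FPKM, and Dnajb1 in stroma in vivo, while Hspd1 and Hsp90aa1 are lowest in endothelium in vivo.

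In the order of group means, endothelium in vivo came first for Hspa1a, Hspa1b, Hspb1 and Hsf1, and in each case its 3 libraries lay above those of the next group. Stroma in vivo came first for Hspa8 and Dnajb1, also without overlap with the next group. The share of all genes whose leading group stands apart in this way is not given here, so these genes cannot be set against it. Cultured stroma led for Hspd1, Hsp90aa1 and Bag3, and cultured endothelium for Hsph1. For Hsp90aa1, Hsph1 and Bag3 the leading group overlapped with the next one. Between these extremes most neighbours in the order overlapped. For Hsph1, 6 of the 7 neighbouring pairs of groups did, and for Hspa8 5 of 7.

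The inducible HSP70 pair was far higher in cells taken from the marrow than in cultured cells, and highest in endothelium from the marrow. Hspa1a measured 385, 571 and 374 FPKM in the 3 endothelial libraries in vivo, against 36.3, 31.2 and 19.0 in culture and 15.6, 16.6 and 16.4 alone. In stroma it measured 140, 189 and 83.8 in vivo, against 16.3, 42.0 and 30.8 in culture and 16.2, 15.6 and 16.2 alone. All 6 in vivo libraries stood above all 18 libraries from culture, and all 3 endothelial ones above the 3 stromal ones. The log2 difference between in vivo and culture was 3.92 ± 0.39 (SE) in endothelium (limma, adjusted p = 2.21e-05), and for stroma it was 2.20 ± 0.39 (adjusted p = 0.000916). Both calls held with each library left out in turn.

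Hspa1b followed Hspa1a closely. It measured 379, 568 and 374 FPKM in endothelium in vivo and 145, 215 and 78.3 in stroma in vivo. In culture the values were 47.7, 54.7 and 27.0 in endothelium and 25.9, 76.2 and 52.6 in stroma, so that stromal replicate 3 in vivo and stromal replicate 2 in culture nearly met. The rise in vivo was 3.35 ± 0.45 in endothelium (adjusted p = 0.00016), and for stroma it was 1.50 ± 0.45 (adjusted p = 0.0167). The stromal call was lost without stromal culture replicate 1 (1.08, adjusted p = 0.0571) and without in vivo replicate 1 (1.44, adjusted p = 0.0506) or 2 (1.16, adjusted p = 0.0703).

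Hspa1a and Hspa1b are near copies, and the files do not say how fragments that match both were divided. Their sum is therefore given beside them. The sum ran from 748 to 1139.6 FPKM in endothelium in vivo, from 162 to 404 in stroma in vivo, from 42.1 to 118 in culture and from 35.0 to 43.2 in the alone and HSPC groups. The ratio of Hspa1b to Hspa1a was 0.934 to 1.14 in vivo and reached 1.82 in cultured stroma. Hspa8, Hspd1 and Hsp90aa1 have processed pseudogenes, and how fragments shared with those were counted is not stated in the sources used here.

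**Figure D2:**
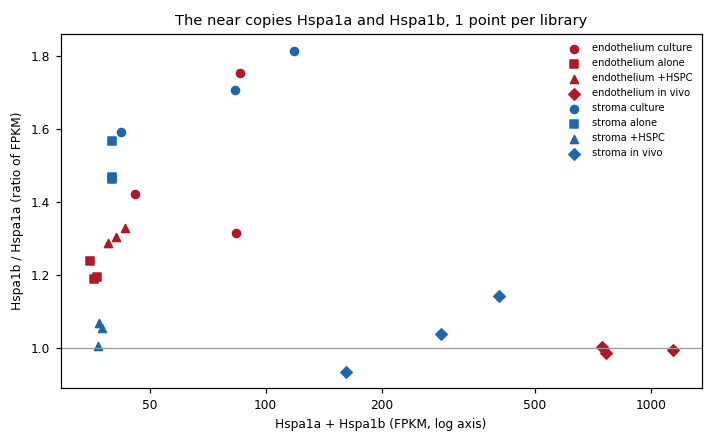
Ratio of Hspa1b to Hspa1a against their summed FPKM on a log axis, 1 point per library, with endothelium in red and stroma in blue and a grey line at a ratio of 1. The 6 in vivo libraries lie at sums of 162 and more with ratios from 0.934 to 1.14, and the culture libraries at sums of at most 118 with ratios up to 1.82.

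Hspb1 differed both between cell types and between settings, but not in every pair of groups. In endothelium it measured 546, 549 and 661 FPKM in vivo, against 11.9, 6.13 and 2.89 in culture and 5.06, 5.95 and 7.05 alone. In stroma it measured 82.5, 103 and 66.7 in vivo, 65.3, 138 and 101 in culture, and 7.56, 9.21 and 8.86 alone. Endothelium was thus highest in vivo without overlap, while stroma in vivo and stroma in culture overlapped and stroma alone lay below both. The log2 difference between in vivo and culture was 6.36 ± 0.40 in endothelium (adjusted p = 9.09e-07) and -0.22 ± 0.40 in stroma, which did not pass the test (adjusted p = 0.663). Against the cultures alone, Hspb1 was higher in vivo in both cell types, by 6.39 ± 0.15 in endothelium (adjusted p = 8.11e-12), and for stroma by 3.14 ± 0.15 (adjusted p = 3.08e-09).

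Dnajb1 showed the reverse cell type pattern. It measured 626, 1349 and 495 FPKM in stroma in vivo, against 139, 116 and 108 in cultured stroma and 91.4, 88.0 and 91.6 alone. In endothelium the values were 192, 203 and 235 in vivo, 143, 128 and 100.2 in culture, and 137, 151 and 145 alone. Stroma in vivo stood above every other group, and endothelium in vivo above every library from culture. The rise was 2.63 ± 0.31 in stroma (adjusted p = 5.65e-05), whereas 0.77 ± 0.31 in endothelium did not pass (adjusted p = 0.0586). Blood cell transcripts were also highest in stroma in vivo. The 12 blood markers (Ptprc, Itgam, S100a8, S100a9, Hba-a1, Hbb-b1, Klf1, Pf4, Cd79a, Cd3e, Kit and Mpo) summed to 46204, 36699 and 37022 FPKM in stromal in vivo replicates 1 to 3. The same sum was 1057 to 1606 in endothelium in vivo and 0 in cultured stroma and stroma alone, with all 12 markers at 0 there, and 5.91 to 45.3 in endothelium in culture and alone. The sum, most of it from the globin genes Hba-a1 and Hbb-b1, was highest in replicate 1. By gene, Hba-a1, Hbb-b1, Ptprc, Itgam, S100a8, S100a9 and Mpo were highest in replicate 1 of these stromal libraries, and Pf4 and Kit in replicate 3. Klf1, an erythroid transcription factor (113, 124 and 104 FPKM), and Cd79a were highest in replicate 2, as were Dnajb1, Hspa1a and Hspa1b. The part of blood cells in the stromal in vivo values was not tested, and in these bulk libraries fewer cells of a type and less RNA per cell cannot be told apart.

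Over the 10 genes, 4 were higher and 2 lower in vivo than in culture in endothelium, where 23.6% of all 14904 tested genes were higher and 29.8% lower. Of all endothelial calls 44.2% were higher, and 53.9% under trimmed-mean scaling. The median difference of the 10 genes was 0.64, against -0.087 over all tested genes. Besides Hspa1a, Hspa1b and Hspb1, Hsf1 rose (111, 108 and 117 FPKM against 83.3, 66.0 and 54.2) by 0.74 ± 0.17 (adjusted p = 0.00481). Those that fell were Hspd1, the mitochondrial HSP60 (-0.81 ± 0.29, adjusted p = 0.0372), and Hsp90aa1, the inducible HSP90 that folds kinases and receptors (-1.14 ± 0.33, adjusted p = 0.0145). Hspd1 measured 84.7 to 102 FPKM in vivo against 121 to 246 in culture, and Hsp90aa1 111 to 152 against 231 to 313. Neither gene overlapped between the groups. The Hspd1 call held in 1 of the 6 fits that left out 1 library (values from -1.02 to -0.51) and the Hsp90aa1 call in 5, being lost without in vivo replicate 2 (-1.05, adjusted p = 0.0517). Hsf1 gave 0.42 when the culture libraries with Xist were left out, which keeps 1 library of cultured endothelium.

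In stroma, 4 of the 10 genes were likewise higher and 2 lower in vivo than in culture, where 24% of all tested genes were higher and 31.4% lower. Of all stromal calls 43.3% were higher, and 56.5% under trimmed-mean scaling. The median difference of the 10 genes was -0.084 in stroma, close to the -0.147 over all tested genes. The 4 that rose were Hspa1a, Hspa1b, Dnajb1 and Hspa8 (1569 to 2343 FPKM against 834 to 1484, 0.86 ± 0.28, adjusted p = 0.0226). Hspd1 fell, with 131 to 139 FPKM in vivo against 224 to 476 in culture (-1.21 ± 0.29, adjusted p = 0.00525). Bag3, the co-chaperone that links HSP70 to small heat shock proteins and to autophagy, measured 159, 346 and 289 in culture and 145 to 153 in vivo (-0.76 ± 0.26, adjusted p = 0.0285). With 1 library left out the Bag3 call held in 1 of 6 fits (from -1.09 to -0.53) and the Hspa8 call in 2 of 6 (0.68 to 1.10), whereas those of Hspa1a, Dnajb1 and Hspd1 held in all 6.

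The change between culture and in vivo differed between the cell types for 5 of the 10 genes. It was more positive in endothelium for 4 of them, where 16.4% of all tested genes were, and more negative for 1, where 17.1% were. Hspb1 differed by 6.58 ± 0.56 (adjusted p = 1.08e-05), Bag3 by 1.30 ± 0.36 (adjusted p = 0.0196) and Dnajb1 by -1.86 ± 0.44 (adjusted p = 0.00841), and these 3 passed with each of the 12 libraries left out. The differences of Hspa1a (1.72 ± 0.55, adjusted p = 0.0354) and Hspa1b (1.86 ± 0.64, adjusted p = 0.0464) passed in 4 and 3 of the 12 such fits, with values from 1.41 to 2.09 and from 1.47 to 2.28. Without the culture libraries that carry Xist, cultured endothelium keeps 1 library, and Bag3 gave 1.34 there.

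The co-culture series gave another set of cultured cells to compare, and this comparison shares the in vivo libraries with the one above. Against endothelium alone, 5 genes were higher in vivo and 2 lower, where 37.4% of all tested genes were higher and 40.1% lower. Of those calls over all genes 48.3% were higher, and 55.5% under trimmed-mean scaling. The log2 differences were 4.66 ± 0.24 for Hspa1a (adjusted p = 5.26e-09), 4.40 ± 0.28 for Hspa1b, 0.61 ± 0.04 for Hsf1 and 0.45 ± 0.05 for Bag3, beside that of Hspb1. Hspd1 (-1.02 ± 0.07) and Hsp90aa1 (-0.71 ± 0.12) were lower. Against stroma alone, 7 genes were higher in vivo and 2 lower, where 34.2% of all tested genes were higher and 45.6% lower. Of all those calls 42.9% were higher, and 53.3% under trimmed-mean scaling. The 7 were Hspa1a (2.95 ± 0.24), Hspa1b (2.44 ± 0.28), Hspb1, Hspa8 (1.21 ± 0.17), Dnajb1 (3.03 ± 0.27), Hsp90aa1 (0.29 ± 0.12) and Hsf1 (0.10 ± 0.04). Hspd1 (-0.51 ± 0.07) and Bag3 (-0.25 ± 0.05) were lower. The stromal call of Hsp90aa1 held in 1 of 6 fits without 1 library (0.20 to 0.39) and that of Hsf1 in none (0.091 to 0.103). Hsph1, the HSP110 that recharges HSP70, passed in no comparison of in vivo with culture or alone. It lay at 50.7 to 138 FPKM in vivo and 112 to 131 alone, and without endothelial in vivo replicate 3 it passed against endothelium alone (-0.75, adjusted p = 0.0134). Against cultured endothelium it passed in 2 of 6 fits without 1 library, those without culture replicate 1 (-1.55, adjusted p = 0.0292) and 3 (-1.46, adjusted p = 0.0438). Against cultured stroma it passed in 3 of 9 other settings, among them the one without the culture libraries with Xist (-1.20, adjusted p = 0.0188).

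**Figure D3:**
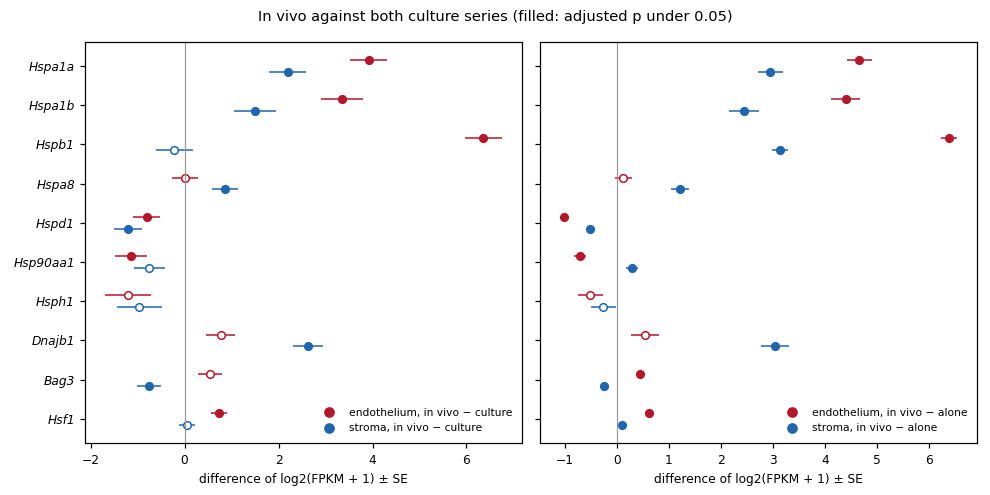
Log2 differences ± SE of the 10 genes for in vivo minus culture (left) and in vivo minus alone (right), in endothelium (red) and stroma (blue), filled where the adjusted p was under 0.05. Both panels use the same 6 in vivo libraries. Hspa1a and Hspa1b lie right of 0 in all 4 comparisons and Hspd1 left of it, while Hspb1 in stroma is at -0.22 against culture and 3.14 against alone.

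Among cells taken from the marrow, endothelium held more inducible HSP70 and Hspb1 than stroma and less Dnajb1. Of the 10 genes 3 were higher in endothelium and 2 lower, where 25% of all tested genes were higher and 24.2% lower. Hspa1a was higher by 1.73 ± 0.39 (adjusted p = 0.00396), Hspa1b by 1.67 ± 0.45 (adjusted p = 0.0106) and Hspb1 by 2.80 ± 0.40 (adjusted p = 0.000179). Dnajb1 was lower by -1.83 ± 0.31 (adjusted p = 0.000639) and Hsp90aa1 by -0.96 ± 0.33 (adjusted p = 0.0345), of which the latter held in 1 of 6 fits without 1 library (-1.09 to -0.86). When these 6 libraries alone entered the fit, 8 genes passed, and the share of all genes passing there is not given. A weight per group also gave 8, and there 10911 of all 14904 tested genes were called, against 7343 without it. In culture the pair Hspa1a and Hspa1b overlapped between the cell types, with differences of 0.01 ± 0.39 and -0.18 ± 0.45, and no gene was higher in endothelium, against 20.1% of all tested genes. There Hspb1 (-3.78 ± 0.40), Bag3 (-1.21 ± 0.26) and Hspd1 (-0.94 ± 0.29) were lower in endothelium, against 18.6% of all tested genes. The Hspd1 ranges overlapped, and its call held in 2 of 6 fits without 1 library (-1.24 to -0.64).

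In most lists of other chaperones more genes fell than rose between culture and in vivo, as was also the case over all tested genes. All 8 subunits of TRiC, the ring that folds actin and tubulin, were lower in vivo than in culture in both cell types, with medians of -1.08 in endothelium and -1.01 in stroma. They were also lower than alone, with medians of -1.01 and -0.62, while the median of all tested genes was between -0.147 and 0 in these 4 comparisons. Under trimmed-mean scaling or quantile normalization 7 of 8 passed in endothelium against culture and 8 of 8 in the other 3 comparisons, all downward. Cct2 stood at 372 ± 24.4 FPKM in endothelium in vivo, against 976 ± 37.7 in culture and 886 ± 36.5 alone (SD over 3 libraries). Of 8 mitochondrial chaperones, 4 fell and none rose in endothelium against culture, and 6 fell and none rose in stroma. Against alone the counts were 7 and 8 of 8. Hspe1, the HSP10 lid of Hspd1, fell by 1.52 ± 0.27 and 1.30 ± 0.27 against culture, and Hspa9, the mitochondrial HSP70, fell by 1.44 ± 0.08 and 2.15 ± 0.08 against alone.

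Other genes known to respond to HSF1 did not move as 1 block. Of 17 such genes, 3 were higher and 7 lower in vivo than in culture in endothelium (median -0.585), where 23.6% of all tested genes were higher and 29.8% lower. In stroma 1 was higher and 6 lower (median -0.481), where 24% and 31.4% of all tested genes were. Cryab, a small heat shock protein of muscle and lens, fell in both cell types, from 95.8 ± 67.5 to 6.62 ± 1.15 FPKM in endothelium and from 1352 ± 1399 to 80.6 ± 13.5 in stroma. Dnajb4, a relative of Dnajb1, fell by 1.86 ± 0.11 in endothelium. In stroma Cacybp, a partner of ubiquitin ligases, fell by 1.35 ± 0.24, and Stip1, which joins HSP70 to HSP90, by 1.31 ± 0.30. Against alone, 4 were higher and 7 lower in endothelium, where 37.4% and 40.1% of all tested genes were, and 3 higher and 9 lower in stroma, where 34.2% and 45.6% were. Hspb8, the partner of Bag3, was listed at 0 in all 3 libraries of endothelium alone and measured 20.5 ± 5.74 in vivo. In stroma it fell from 242 ± 5.32 alone to 22.8 ± 1.92 in vivo, by 3.36 ± 0.15.

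For the smaller families the shares of all tested genes against culture are again 23.6% higher and 29.8% lower in endothelium, and 24% and 31.4% in stroma. Of 11 genes of the HSP90 system, 1 was higher and 5 lower in endothelium in vivo against culture, and 0 higher and 7 lower in stroma. The 1 that rose was Fkbp5, an HSP90 partner induced by glucocorticoids (267 ± 139 against 23.1 ± 6.20 FPKM, 3.39 ± 0.41). It passed against alone in both cell types, by 3.74 ± 0.27 in endothelium and 3.65 ± 0.27 in stroma, and did not pass in stroma against culture (0.44 ± 0.41, adjusted p = 0.391). Of 9 other HSP70 and HSP110 genes, 2 rose and 4 fell in endothelium against culture, and 0 rose and 4 fell in stroma. J-domain genes lay close to the shares of all tested genes, with 4 of 15 higher and 5 lower in either cell type, and Dnaja4 rose by 1.62 ± 0.12 in endothelium. Of 8 BAG and exchange factors, 5 fell and 1 rose in endothelium, and 6 fell and none rose in stroma. Of 5 tested small heat shock proteins other than Hspb1, 2 fell in endothelium and 3 in stroma, and none rose. Against endothelium alone 2 of the 5 were higher and 1 lower. ER chaperones fell in 5 of 12 cases in endothelium, where 1 rose, and in 7 of 12 in stroma, where none rose. Of Hsf2, Hsf4 and Hsf5, the other heat shock factors, 2 were tested and neither passed against culture, while 1 was higher against alone in either cell type. All these lists were drawn up with earlier results of the series known, and their counts describe them without a test of the list.

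**Figure D4:**
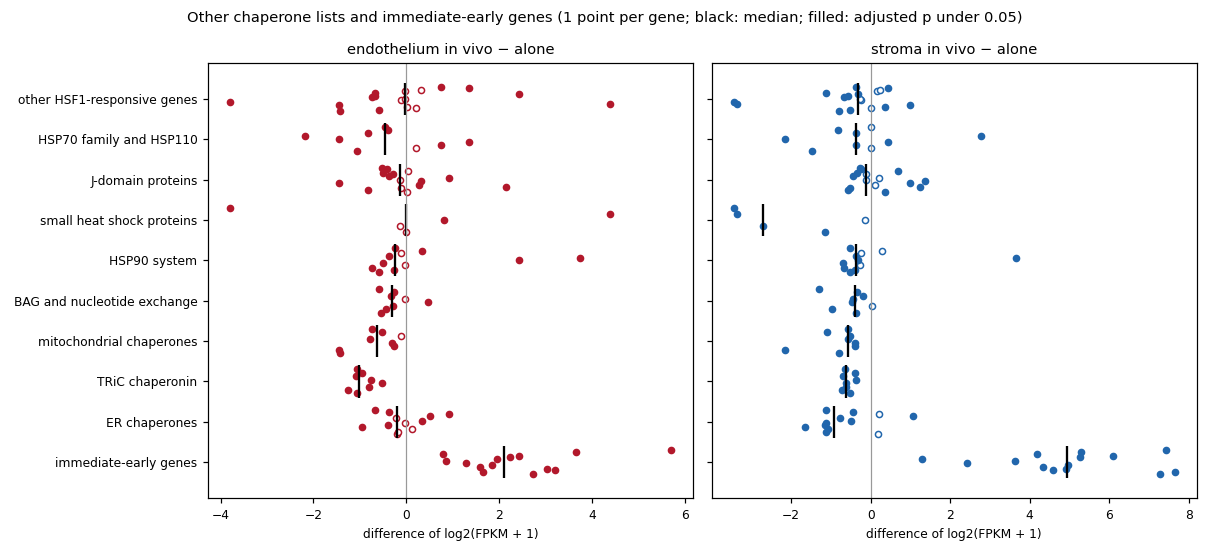
Log2 differences between in vivo and alone for 9 lists of other chaperone genes and for 14 immediate-early genes, 1 point per gene, in endothelium (left) and stroma (right), filled where the adjusted p was under 0.05. Black bars mark list medians. All 8 TRiC points lie left of 0 in both panels, at medians of -1.01 and -0.62, and all 14 immediate-early points right of 0.

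Immediate-early genes, which are switched on within minutes of a stimulus such as tissue dissociation, were measured beside the 10 genes. The sum of Fos, Fosb, Jun, Junb, Jund, Egr1, Atf3, Ier2, Ier3, Nr4a1, Dusp1, Btg2, Zfp36 and Socs3 was 25225 to 42563 FPKM in endothelium in vivo and 32419 to 49353 in stroma in vivo. It was 703 to 1412 in both culture groups, 5728 to 6318 in endothelium alone and 1114 to 1193 in stroma alone. In vivo, 14 of 14 were higher than in culture in endothelium (median 5.17) and 13 of 14 in stroma (median 4.72). The sums overlapped between endothelium and stroma in vivo, but single genes differed. Of the 14, 1 was higher and 3 were lower in endothelium in vivo than in stroma in vivo. Of all tested genes 25% were higher and 24.2% lower there. In endothelium alone 13 of 14 immediate-early genes were above culture, where 8.78% of all 14071 tested genes were higher and 14.4% lower. There none of the 10 heat shock genes passed in either direction, though Hspa1a, Hspa1b and Hsp90aa1 lay below culture without overlap. The part of the immediate-early genes in the heat shock values was not tested.

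With HSPC, 5 of the 10 genes (Hspa1b, Hspb1, Hspa8, Hsph1 and Bag3) passed in both cell types in opposite directions, and only Hspb1 changed at least 2-fold. The share of all tested genes with such opposite calls is not given here, so this count cannot be set against it. In endothelium 5 of the 10 genes were higher with HSPC than alone and 3 lower, where 28.3% of all 14017 tested genes were higher and 20.3% lower. Of all those calls 58.2% were higher, and 45.4% under quantile normalization. In stroma 4 genes were higher and 4 lower, where 25.6% of all tested genes were higher and 35.4% lower. With all 8 groups in 1 fit, which widens the spread, 1 gene passed in endothelium (Hspb1) and 2 in stroma (Hspb1 and Dnajb1).

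Hspb1 measured 1.98, 2.09 and 1.44 FPKM in endothelium with HSPC and 5.06, 5.95 and 7.05 alone, so that it was lower in all 3 libraries with HSPC (-1.31 ± 0.12, adjusted p = 4.57e-06). In stroma it measured 20.2, 21.1 and 20.5 with HSPC and 7.56, 9.21 and 8.86 alone, and was higher in all 3 (1.18 ± 0.12, adjusted p = 6.45e-06). The groups did not overlap in either cell type, and the effects differed by -2.49 ± 0.17 (adjusted p = 5.83e-07). Hsph1 went the other way. It measured 225, 194 and 215 in endothelium with HSPC against 118, 112 and 125 alone (0.83 ± 0.07, adjusted p = 1.34e-06), and 99.1, 85.8 and 95.8 in stroma with HSPC against 123, 130.2 and 131 alone (-0.45 ± 0.07, adjusted p = 0.000111). Those effects differed by 1.28 ± 0.09 (adjusted p = 9.14e-07).

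Dnajb1 responded in stroma, with 167, 142 and 174 FPKM against 91.4, 88.0 and 91.6 alone (0.82 ± 0.07, adjusted p = 9.53e-07). In endothelium it lay at 140 to 149 with HSPC and 137 to 151 alone and did not pass (-0.01 ± 0.07, adjusted p = 0.953). Bag3 rose in endothelium, with 155 to 158 FPKM against 108 to 121 alone (0.44 ± 0.05). It fell in stroma, with 149 to 152 against 170 to 188 alone (-0.23 ± 0.05). Hspa8 likewise rose in endothelium (0.23 ± 0.05) and fell in stroma (-0.28 ± 0.05). Hsp90aa1 rose in both, by 0.41 ± 0.07 and 0.39 ± 0.07, and the difference of 0.02 ± 0.10 did not pass (adjusted p = 0.879). In endothelium Hspd1 (-0.32 ± 0.07) and Hsf1 (-0.10 ± 0.03) fell, and the Hsf1 call held in 3 of 6 fits without 1 library (-0.122 to -0.082).

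The inducible HSP70 pair stayed low with HSPC. Hspa1a lay at 17.1 to 18.5 FPKM in endothelium with HSPC against 15.6 to 16.6 alone, and at 17.9 to 18.3 in stroma against 15.6 to 16.2. In stroma Hspa1a rose by 0.17 ± 0.05 while Hspa1b fell (-0.33 ± 0.05), and for the sum of these near copies the difference was -0.105 (adjusted p = 0.0514). In endothelium Hspa1b rose by 0.24 ± 0.05.

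The HSPC effects differed between the cell types for 8 of the 10 genes. They were more positive in endothelium for Hspa1b (0.56 ± 0.07), Hspa8 (0.52 ± 0.07), Hsph1 and Bag3 (0.68 ± 0.06), where 36% of all tested genes were. The opposite held for Hspb1, Dnajb1 (-0.84 ± 0.09), Hspd1 (-0.29 ± 0.105) and Hsf1 (-0.16 ± 0.04), where 21.1% were. The median of this difference over all tested genes was 0.112. That of Hspd1 held in 4 of 12 fits without 1 library (-0.38 to -0.21), and the other 7 held in 12 of 12. With the spread of all 8 groups 1 of the 8 passed, that of Hspb1.

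**Figure D5:**
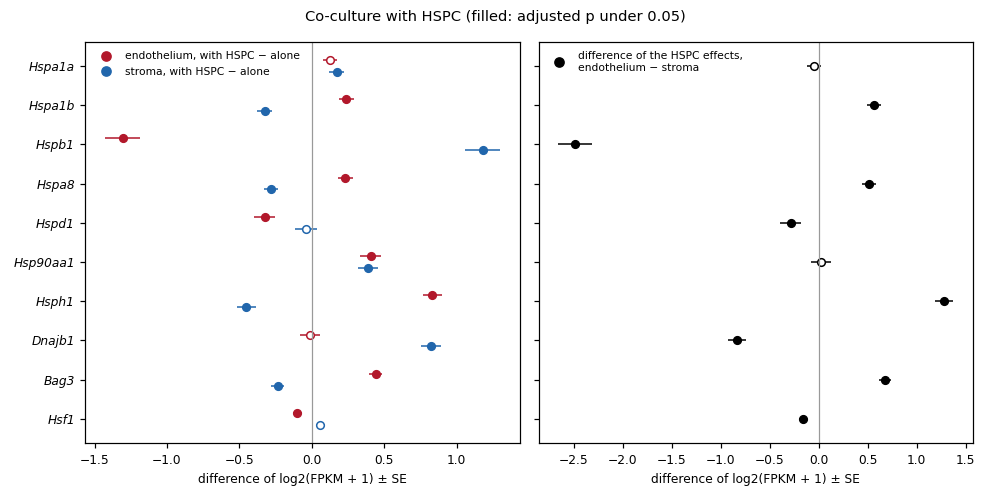
Log2 differences ± SE between the groups with HSPC and alone for the 10 genes in endothelium (red) and stroma (blue), and the difference of these effects (black, right), filled where the adjusted p was under 0.05. Hspb1 lies at -1.31 in endothelium and 1.18 in stroma, Hsph1 at 0.83 and -0.45.

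Blood markers rose with HSPC in both cell types, to sums of 1029.7 to 1213 FPKM in endothelium and 460 to 615 in stroma, from 11.8 to 18.3 and from 0. The part of HSPC RNA in the values with HSPC was not tested. Immediate-early genes fell in endothelium (7 of 14 lower, 1 higher) and rose in stroma (13 higher, 1 lower). ER chaperones, which fold secreted proteins, rose in 10 of 12 cases in endothelium, among them Hsp90b1 (0.77 ± 0.05). In stroma 5 rose and 4 fell, or 4 rose and 7 fell under quantile normalization, and Hspa5, the ER HSP70, rose from 2181 ± 57.0 to 5235 ± 648 FPKM (1.26 ± 0.07). Of the 17 other HSF1-responsive genes, 6 rose and 3 fell in endothelium, where 28.3% of all tested genes rose and 20.3% fell. In stroma 6 rose and 7 fell, where 25.6% and 35.4% of all tested genes did. Hspa2, an HSP70 of germ cells, rose in both, by 1.33 ± 0.08 and 1.05 ± 0.08, and Hspb7, a small heat shock protein of heart muscle, rose by 2.11 ± 0.11 in stroma. Lonp1, a mitochondrial protease, rose by 1.05 ± 0.03 in endothelium and 1.27 ± 0.03 in stroma.

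Without HSPC, the cell types differed in 6 of the 10 genes. Hspa8 (0.39 ± 0.05) and Dnajb1 (0.67 ± 0.07) were higher in endothelium alone than in stroma alone, where 42% of all tested genes were higher. Bag3 (-0.62 ± 0.05), Hspb1 (-0.45 ± 0.12), Hspa1b (-0.28 ± 0.05) and Hsf1 (-0.14 ± 0.03) were lower, where 41.3% were. All 6 differences were under 2-fold, and with the spread of all 8 groups those of Dnajb1 and Bag3 passed. All 8 TRiC subunits were higher in endothelium alone and 10 of 12 ER chaperones lower.

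The 2 culture series were also compared with each other. In endothelium 0 of the 10 passed between alone and culture with limma, where 8.78% of all 14071 tested genes were higher and 14.4% lower. Unadjusted p-values were under 0.05 for Hspa1a (-0.75 ± 0.31) and Hspa1b (-1.04 ± 0.35), and both passed after adjustment without endothelial culture replicate 3 (-1.01 and -1.34). Of all endothelial calls 37.8% were higher, and 53.3% under trimmed-mean scaling. In stroma none was higher and 3 were lower alone, where 16% of all tested genes were higher and 17.8% lower. They were Hspb1 (-3.36 ± 0.40, adjusted p = 0.000147), Hsp90aa1 (-1.04 ± 0.31, adjusted p = 0.0281) and Dnajb1 (-0.41 ± 0.14, adjusted p = 0.0406). With 1 library left out these calls held in 6, 3 and 1 of 6 fits. Without stromal culture replicate 1, Hspa1a (-1.12), Hspa1b (-1.37) and Bag3 (-0.84) also passed.

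Across all 24 libraries, Hspa1a and Hspa1b had a Pearson correlation of log2(FPKM + 1) of 0.988, and Hspb1 followed both at 0.846 and 0.850. Hspd1 ran against Hspa1a at -0.649 and with Hsp90aa1 at 0.801. These correlations describe libraries that fall into 8 groups and are given without a test. Among 12520 genes with a mean of at least 5 FPKM, those most like Hspa1a were BC021614, Abcc9 and Gtf3c2 (0.964 to 0.965), and those most like Hspa1b were Pip4k2a, Cd36 and Cadm3 (0.954 to 0.960). Nearest to Hspb1 were Lbh, Mir17hg and Chst15 (0.935 to 0.937), to Hspd1 Ipo5, Nup62 and Smyd2 (0.942 to 0.959), and to Hsf1 Spen, Daglb and Cdc42ep4 (0.914 to 0.916). Dnajb1 was most like Epb4.2, Trim58 and Trim10 (0.928 to 0.931), of which Epb4.2, protein 4.2 of the red cell membrane, measured 119, 178 and 125 FPKM in stroma in vivo. Trim58 measured 104.5, 159 and 110.1 and Trim10 160.1, 230 and 182 there. All 3 were highest in replicate 2, as Dnajb1 was, but they were picked by their likeness to it over these same libraries. The shared order is thus part of the choice. All 3 were listed at 0 in every library from culture, and they reached the mean of 5 FPKM through stroma in vivo. The nearest genes were Fbxo33, Akr1c13 and Pet112 for Hspa8 (0.879 to 0.917) and Elof1, Hars and Gemin6 for Hsp90aa1 (0.888 to 0.911). They were Polm, Soga2 and Slc4a2 for Bag3 (0.884 to 0.905) and Ano3, Commd5 and Cog4 for Hsph1 (0.787 to 0.814).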

How the data were processed

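The authors deposited 1 table per library with an FPKM value per gene symbol, made with TopHat and Cufflinks on mm9, per the submitters' processing notes. Tool versions are not stated there. Any further scaling of the values is not given in the sources used here. A search for steps of single reads among low values found none (fullest bin at most 8.97% of values), so depth and its precision are unknown. Groups came from the titles.

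Values were taken as deposited, as log2(FPKM + 1), a scale that understates the change of low genes. Genes with at least 1 FPKM in at least 3 libraries of a fit were tested with limma 3.58.1 (trend) in R 4.3.3. The 4 fits of 12 libraries (in vivo with culture, HSPC with alone, alone with culture, in vivo with alone, each in both cell types) gave 13 comparisons, 2 of them interactions. Every p printed as adjusted p is limma's, Benjamini-Hochberg adjusted over all tested genes of its comparison, and genes with adjusted p under 0.05 were called. The code was tested on simulated data.

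The 10 genes and all lists were chosen with earlier results of these data known. 1 further blood marker is not reported here. All 10 are named, and from other lists at most 3 called genes with the largest log2 difference and at least 5 FPKM in the higher group, further genes to describe a list, and the 3 genes most correlated with each member. Same-numbered libraries did not deviate together (correlations from -0.158 to 0.12), so no block was used. Alternatives were another pseudocount (0.1), no filter or one at 5 FPKM, trimmed-mean scaling, quantile normalization, group weights, the block, other sets of groups, a 2-fold limit, the sum of Hspa1a and Hspa1b, and each library left out. Fits without endothelial culture replicate 2 and stromal culture replicate 1, and without the libraries that carry Xist, were added after seeing the data. Promoter windows are RefSeq's on GRCm38.p6, and no other coordinates are given. Figures used Python 3.11.15 and matplotlib 3.10.9.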

Additional observations from a re-analysis of the deposited data

Results flagged for a closer look

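The change between culture and in vivo differed between endothelium and stroma, by a test of the difference itself, for 5 of the 10 genes. The differences on the log2 scale were 6.58 for Hspb1, 1.86 for Hspa1b, 1.72 for Hspa1a, 1.30 for Bag3 and -1.86 for Dnajb1. That of Hspb1 passed in each of the 12 fits that left out 1 library, with values from 6.15 to 7.02. Those of Hspa1a and Hspa1b passed in 4 and 3 of these 12 fits. These 5 rest on the culture libraries, of which 3 carry Xist, and without those 3 cultured endothelium keeps 1 library.

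The response to HSPC also differed between the cell types, by the same kind of test, for 8 of the 10 genes. The differences were -2.49 for Hspb1, -0.84 for Dnajb1, -0.29 for Hspd1, -0.16 for Hsf1, 0.52 for Hspa8, 0.56 for Hspa1b, 0.68 for Bag3 and 1.28 for Hsph1. Hspb1 was lower in 3 of 3 endothelial libraries with HSPC than in any alone, and higher in 3 of 3 stromal ones. With all 8 groups in 1 fit, 1 of the 8 differences passed, that of Hspb1.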

How the results depend on the processing

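Sign changes touched genes that had not passed the test, apart from the sums of Hspa1a and Hspa1b. The causes of the shifts below were not tested, except that a stricter fold, fewer libraries or another set of groups in the fit moves counts by construction. With trimmed-mean scaling, the count of called genes was 1 (from 0) for endothelium alone against culture. With trimmed-mean scaling, Hspb1 gave 0.026 for stroma in vivo against culture, Hspa1a gave -0.047 for the cell types in culture, Dnajb1 gave -0.029 for the cell types in culture, Bag3 gave -0.034 for the cell types in vivo, Hsp90aa1 gave -0.053 for the difference of the HSPC effects, Hspa1a gave -0.0030 for the cell types alone, Hspb1 gave 0.074 for endothelium alone against culture, Hspa8 gave 0.0079 for endothelium alone against culture and Hsf1 gave 0.035 for stroma alone against culture. With quantile normalization, Hspa8 gave -0.0067 for endothelium in vivo against culture, Dnajb1 gave -0.048 for the cell types in culture, Bag3 gave -0.119 for the cell types in vivo, Hsp90aa1 gave -0.035 for the difference of the HSPC effects, Hsp90aa1 gave -0.095 for the cell types alone, Hspb1 gave 0.175 for endothelium alone against culture and Hsf1 gave 0.025 for stroma alone against culture. With a weight per group, the count of called genes was 3 (from 5) for the cell type difference between in vivo and culture, 8 (from 5) for the cell types in vivo and 1 (from 0) for endothelium alone against culture. With all 8 groups in one fit, the count of called genes was 8 (from 5) for the cell types in vivo, 1 (from 8) for endothelium with HSPC, 2 (from 8) for stroma with HSPC, 1 (from 8) for the difference of the HSPC effects, 2 (from 6) for the cell types alone, 1 (from 0) for endothelium alone against culture and 6 (from 3) for stroma alone against culture. With only the compared groups in the fit, the count of called genes was 8 (from 5) for the cell types in vivo and 1 (from 0) for endothelium alone against culture. With Hspa1a and Hspa1b summed, the sum gave -0.108 for the cell types in culture, -0.105 for stroma with HSPC, 0.298 for the difference of the HSPC effects and -0.157 for the cell types alone, opposite in sign to Hspa1a alone. Without endothelial culture replicate 2 and stromal culture replicate 1, the count of called genes was 3 (from 0) for endothelium alone against culture and 6 (from 3) for stroma alone against culture. Without endothelial culture replicate 2 and stromal culture replicate 1, Hsf1 gave -0.121 for stroma in vivo against culture, Hsph1 gave 0.299 for the cell type difference between in vivo and culture, Hspa1a gave -0.438 for the cell types in culture and Hspa8 gave 0.022 for endothelium alone against culture. Without the 3 culture libraries with Xist, the count of called genes was 2 (from 5) for the cell type difference between in vivo and culture and 6 (from 3) for stroma alone against culture. Without the 3 culture libraries with Xist, Hspa8 gave -0.0054 for endothelium in vivo against culture, Hsph1 gave 0.685 for the cell type difference between in vivo and culture, Hspa1b gave 0.096 for the cell types in culture, Hspa8 gave -0.0069 for the cell types in culture, Hsf1 gave 0.074 for the cell types in culture, Hspd1 gave -0.372 for endothelium alone against culture, Hsph1 gave 0.0037 for endothelium alone against culture, Hsf1 gave -0.182 for endothelium alone against culture and Hsf1 gave 0.027 for stroma alone against culture. When a change of at least 2-fold was also asked for, the count of called genes was 1 (from 8) for endothelium with HSPC, 1 (from 8) for stroma with HSPC, 2 (from 8) for the difference of the HSPC effects, 0 (from 6) for the cell types alone, 4 (from 7) for endothelium in vivo against alone and 5 (from 9) for stroma in vivo against alone.

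With 1 library left out, the counts that moved ranged over 3 to 8 for the cell type difference between in vivo and culture, 3 to 5 for stroma in vivo against culture, 0 to 2 for endothelium alone against culture and 1 to 5 for stroma alone against culture. Signs turned within these ranges for Hspa1a (-0.359 to 0.30) for the cell types in culture, Hsph1 (-0.730 to 0.220) for the cell types in culture, Dnajb1 (-0.086 to 0.170) for the cell types in culture, Hsph1 (-0.587 to 0.364) for the cell type difference between in vivo and culture, Hspa8 (-0.153 to 0.185) for endothelium in vivo against culture, Hspa1b (-0.603 to 0.158) for the cell types in culture, Hsf1 (-0.121 to 0.157) for stroma in vivo against culture, Hspb1 (-0.504 to 0.031) for stroma in vivo against culture, Hspa8 (-0.026 to 0.389) for the cell types in culture, Hsp90aa1 (-0.068 to 0.080) for the difference of the HSPC effects, Hspd1 (-0.087 to 0.0043) for the cell types alone, Dnajb1 (-0.048 to 0.022) for endothelium with HSPC, Hspa1a (0 to 0.042) for the cell types alone, Hspd1 (-0.110 to 0.052) for stroma with HSPC, Hspb1 (-0.461 to 0.405) for endothelium alone against culture, Hspa8 (-0.244 to 0.022) for endothelium alone against culture, Bag3 (-0.039 to 0.285) for endothelium alone against culture, Hsf1 (-0.017 to 0.288) for endothelium alone against culture, Hsf1 (-0.220 to 0.058) for stroma alone against culture and Hspa8 (-0.047 to 0.291) for endothelium in vivo against alone. The replicate numbers did not pair the libraries (correlations of deviations from -0.158 to 0.12), and with the replicate block the counts of called genes ranged from 0 to 8, each within 1.5 times its value without the block, with 7 in place of 8 for the difference of the HSPC effects and 8 in place of 9 for stroma in vivo against alone. Where a lone library was left in a group, as in cultured endothelium without the libraries with Xist, it was taken to vary like the others. Trimmed-mean scaling moved the median of all genes from -0.147 to 0.049 for stroma in vivo against culture, from -0.117 to 0.033 against alone and from -0.109 to -0.005 for endothelium alone against culture. Quantile normalization moved it from 0 to -0.167 for endothelium in vivo against alone. Depth is unknown, so no limit of detection could be given, and genes of a few FPKM such as Hspb1 in endothelium with HSPC carry a fold that the added 1 FPKM shrinks.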
